A study of Rattus norvegicus with 4 samples.

Results

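The genes described here encode the glutathione and thioredoxin systems of thiol-based antioxidant defence and the transcription factor NRF2 with its inhibitor. They were chosen by name as a list of 36 genes, with earlier results of these data known. A gene was measured through the array's probe sets that carry its symbol and no other. Of the 36, 35 had such a probe set, out of 14217 genes on the array, and 34 were bright enough to be tested. They fell into a glutathione arm of 20 genes, a thioredoxin arm of 12 genes and 4 genes around NRF2. Prdx1 had no probe set of its own and is not analysed here, and Gpx3 was too dim, with only 1 of its 4 array values above background.

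RNA was taken from cultured smooth muscle cells of the Sprague-Dawley rat aorta, which had 10% serum for 5 days and no serum for a further 3 days. Interleukin-1 beta (IL-1b), a cytokine that drives inflammation, was then given to 2 samples for 24 hours at 2.5 ng/mL, while the 2 control samples had its vehicle, 0.1% bovine serum albumin. Each sample was hybridised to its own single-colour Affymetrix array. The labels leave unsaid whether each sample was a culture of its own. P-values therefore reflect the spread among these 4 samples alone, which may be technical, and 2 arrays per group limit the precision.

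Glutathione is a tripeptide made in the cytosol from cysteine, glutamate and glycine. The cystine carrier Slc7a11 brings in the cysteine as cystine, glutamate-cysteine ligase (Gclc with its modifier Gclm) and glutathione synthetase (Gss) build the tripeptide, and glutathione reductase (Gsr) restores it after oxidation. Glutathione peroxidases use it to reduce peroxides, and glutathione transferases attach it to reactive compounds. The thioredoxin system runs in parallel: thioredoxin reductases keep thioredoxins reduced, thioredoxins reduce peroxiredoxins, and Txnip binds and inhibits thioredoxin. NRF2, encoded by Nfe2l2, is held back and marked for degradation by Keap1. When released, it pairs with small Maf proteins and binds antioxidant response elements in genes of these systems. Its activity is set largely at the level of the protein, which was not measured here.

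The smooth muscle label was checked against 8 smooth muscle markers, all above background on both vehicle arrays, and 7 of them fell with IL-1b. The summed intensity of this marker list was 31702 and 32279 with vehicle and 11731 and 8746 with IL-1b. Of 7 endothelial markers 6 had a probe set, and their sum was 117 to 259 over the 4 arrays with 0 to 3 of them above background. For 6 fibroblast markers the sums were 958 and 1017 with vehicle and 1532 and 2150 with IL-1b. The 8 leukocyte markers summed to 701 and 771 with vehicle and 1826 and 2029 with IL-1b, with 2 and 3 of them above background with vehicle and 5 on each IL-1b array. None was listed at exactly 0, the integrin Itgam was below background on all 4 arrays, and most of the rise was lysozyme, Lyz2. Without Lyz2 the leukocyte sums were 690 and 768 with vehicle and 1060 and 1141 with IL-1b. The part of these marker shifts in the results was not tested, and in cultures measured in bulk, fewer cells of a type and less RNA per cell cannot be told apart. IL-1b replicate 1 stood apart, with hybridisation controls at 3.53 times their vehicle mean, against 0.957 times on IL-1b replicate 2, and a background of 76.7 against 18.8 to 29.4 on the other arrays.

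With IL-1b, transcripts rose for the cystine carrier Slc7a11, the ligase subunit Gclc, the reductases Gsr and Txnrd1, sulfiredoxin (Srxn1), peroxiredoxin 5 (Prdx5), the transferases Mgst1, Gstp1 and Gstm1, Nfe2l2 and Nqo1. The other ligase subunit, Gclm, and the mitochondrial reductase Txnrd2 did not pass. Txnip and the transferases Gsta4 and Gstm2 were lower. In all, 11 of 34 genes rose, or 32.4%, against 7.19% of all 10000 genes tested, and 3 of 34 fell, or 8.82%, against 8.13% of all genes (limma, adjusted p under 0.05). The share that rose was thus above the background of the whole table, and the share that fell was close to it. Because the list was chosen with earlier results of these data known, these shares describe it and are not independent support for a rise. The median log2 fold change over the 34 genes was 0.38, beside -0.01 over all genes. Log2 fold changes here are IL-1b minus vehicle on the log2(intensity + 5.49) scale, on which the changes of dim genes come out too small, and p-values were adjusted by the Benjamini-Hochberg method across the 18625 probe sets tested, of which 13.4% passed. The values of the 2 groups did not overlap in 29 of the 34 genes, and in 61.3% of all genes.

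**Figure D1:**
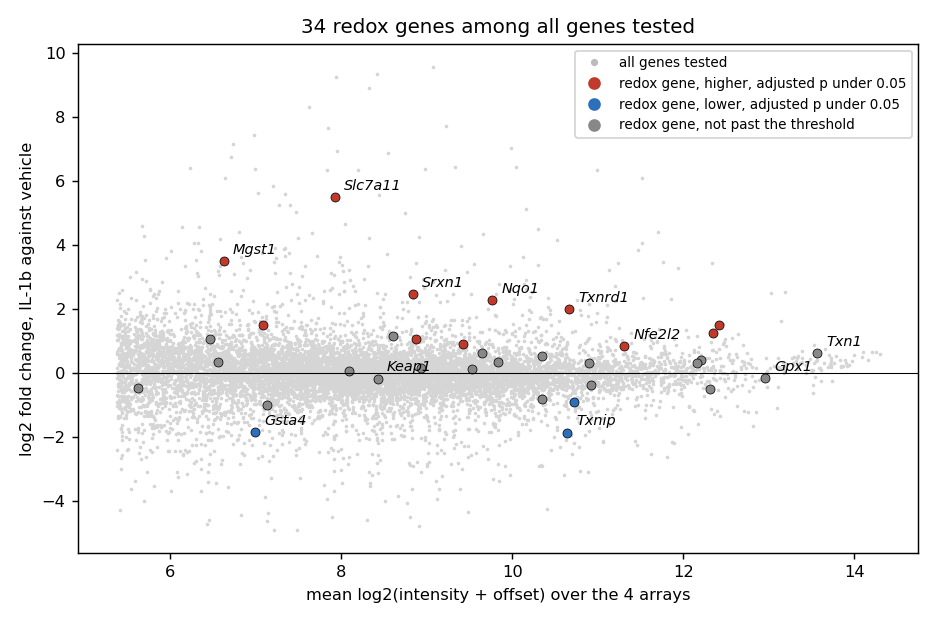
Log2 fold change of IL-1b against vehicle (vertical axis, offset scale) against the mean log2 intensity over the 4 arrays (horizontal axis), for all 10000 genes tested (light grey) and the 34 redox genes (larger points, coloured by direction where past an adjusted p of 0.05). Slc7a11 lies highest of the 34 at 5.49, and Txnip and Gsta4 lie lowest at -1.87 and -1.85.

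The calls differed in how much they depended on the analysis. Slc7a11, Mgst1, Txnrd1, Srxn1 and Nqo1 (higher) and Txnip (lower) were past the threshold in each of the alternatives that tested them, including those that left out an array. The other 8 of the 14 calls were lost in at least 1 alternative, and all 14 kept their direction. Without the intensity trend of the variance, 5 genes were higher and 2 lower, when 5.76% of all genes passed in either direction. The counts moved most with the arrays left out. Without IL-1b replicate 1 they were 17 higher and 8 lower, when 33.8% of all genes passed, and without IL-1b replicate 2 they were 19 and 7, when 50.5% did. Without vehicle replicate 1 they were 9 and 1, when 8.96% of all genes passed, and without vehicle replicate 2 they were 8 and 1, when 8.58% did.

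Promoter sequences were searched because several of the genes that rose are known NRF2 targets. Windows of 300 bases, from 250 before to 50 after the annotated start, came from RefSeq for build GRCr8 and matched 30 of the 36 genes. The core of the antioxidant response element was searched as TGACNNNGC, and the site of AP-1, a factor family that binds a related sequence, as TGANTCA, each on both strands. The 2 patterns can overlap, as in TGACTCAGC. An element core was found in the windows of 4 of 10 genes that rose and 2 of 16 that did not pass, against 12.1% of all 33469 windows. The AP-1 pattern was found for 3 of 10 genes that rose and 1 of 16 that did not pass, against 7.33% of all windows. The 2 windows of genes that fell, those of Gsta4 and Gstm2, held neither pattern. Genes with several windows count once if any window matched, which raises their chance of a match over that of a single window. The list was chosen by name and holds known NRF2 targets, so these shares describe it and are not independent support. These are matches of letters, not measured binding. The stretches below are shown because they place the patterns in 4 genes that rose, and in Gclm, which holds an element core and did not pass. Each runs 5′ to 3′ on the gene's strand, with the matched pattern in capitals (reverse complement of the element core in Txnrd1 and Gclm, AP-1 alone in Srxn1 and Mgst1, both overlapping in Gstp1).
Txnrd1, chr7:22755939-22756017, minus strand: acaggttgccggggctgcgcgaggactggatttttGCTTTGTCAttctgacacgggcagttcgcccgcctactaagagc
Srxn1, chr3:161064715-161064791, plus strand: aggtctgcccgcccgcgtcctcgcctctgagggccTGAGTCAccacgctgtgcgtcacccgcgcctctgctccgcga
Gstp1, chr1:210769723-210769801, minus strand: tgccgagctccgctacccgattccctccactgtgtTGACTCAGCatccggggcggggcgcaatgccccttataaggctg
Mgst1, chr4:172760755-172760831, plus strand: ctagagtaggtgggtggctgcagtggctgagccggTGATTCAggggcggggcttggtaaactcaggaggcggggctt
Gclm, chr2:213031928-213032006, plus strand: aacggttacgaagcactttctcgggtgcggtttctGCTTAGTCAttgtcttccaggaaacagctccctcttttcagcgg
The element cores of Nfe2l2 and Prdx5 lie in or partly in the bases after the start. Another AP-1 match in the Srxn1 window, TGAGTCA, lies at the start itself, outside the stretch shown. The windows of Slc7a11 and Nqo1 held neither pattern, which says only that these letters are not in these 300 bases.

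Among the genes of glutathione supply and synthesis, 3 of 5 rose, or 60% beside 7.19% of all genes, and 2 did not pass. Slc7a11, the exchanger that takes up cystine for glutamate, read 27.5 and 34.6 with vehicle and 1285 and 2057 with IL-1b, replicate 1 first here and throughout. Both IL-1b arrays lay far above both vehicle arrays, 1 of which was below background. Its log2 fold change was 5.49 ± 0.28 (SE, limma adjusted p = 8.7e-05), 44.9-fold on the offset scale. That was the increase of rank 28 among 10000 genes, and it ranged from 5.15 to 5.83 when 1 array was left out. Gclc, the catalytic subunit of the first and rate-limiting enzyme of synthesis, read 530.1 and 462 with vehicle and 886 and 989 with IL-1b. The groups did not overlap, and the log2 fold change was 0.91 ± 0.16 (adjusted p = 0.011). The second probe set of Gclc gave 0.65 (0.047), and the brighter one missed the threshold without vehicle replicate 2 (0.14), without the intensity trend (0.088) and after median centring (0.35).

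Gclm, the modifier subunit that makes the ligase more efficient, read 276 and 247 with vehicle and 218 and 343 with IL-1b. The IL-1b values lay on either side of the vehicle values, and the log2 fold change was 0.07 ± 0.26 (adjusted p = 0.89). For Gss, the enzyme of the second step, the values were 488 and 424 with vehicle and 538 and 487 with IL-1b, which overlap (log2 fold change 0.17, adjusted p = 0.56). Gsr, which regenerates glutathione with NADPH, read 60.1 and 94.9 with vehicle and 220.4 and 224 with IL-1b. Its IL-1b arrays were nearly equal and its vehicle arrays were not, and it rose by 1.49 ± 0.32 (log2, SE, adjusted p = 0.025). Gsr missed the threshold without vehicle replicate 1 (0.14), without the intensity trend (0.068) and after median centring (0.052). The parts of the ligase thus had different results, Gclc past the threshold and Gclm not, but the difference between them was not tested.

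**Figure D2:**
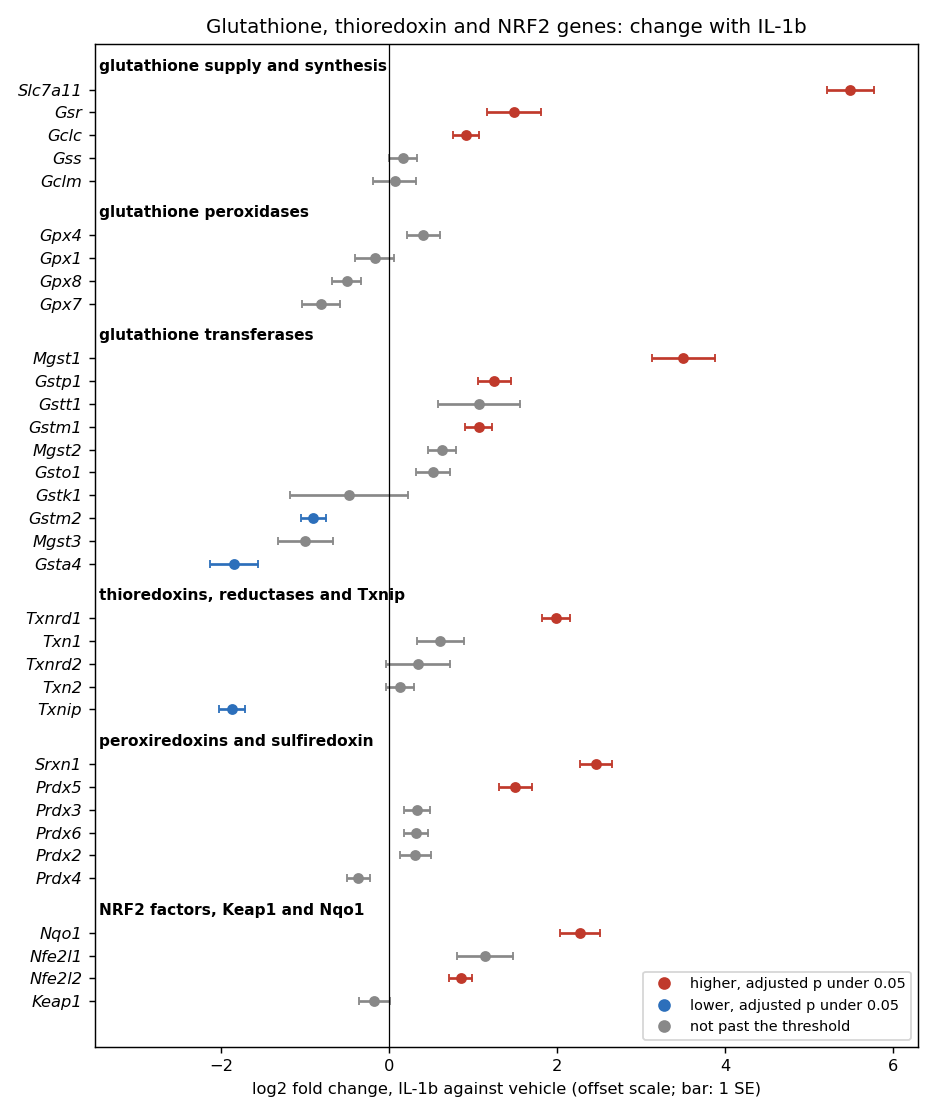
Log2 fold change of IL-1b against vehicle (horizontal axis, offset scale) for each of the 34 genes, grouped by role; points are fitted values, bars are 1 SE, red and blue mark genes higher and lower at an adjusted p under 0.05. No peroxidase is coloured, and the transferases run from Mgst1 at 3.50 to Gsta4 at -1.85.

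Of the glutathione peroxidases, 0 of 4 tested passed in limma, beside 15.3% of all genes in either direction. So few genes cannot be set apart from that share. An unadjusted p under 0.05 was found in 2 of 4, as in 2990 of all 10000 genes. Gpx1, the cytosolic selenoenzyme, read 8550.4 and 8329 with vehicle and 9139 and 6131 with IL-1b, 1 above and 1 below the vehicle values. Gpx4, which reduces lipid peroxides in membranes, read 3978 and 4207 with vehicle and 6330.2 and 4641 with IL-1b (log2 fold change 0.41, adjusted p = 0.24). Gpx7 and Gpx8 belong to the endoplasmic reticulum and carry cysteine in place of selenocysteine. Gpx7 read 1686 and 1756 with vehicle and 1239 and 772 with IL-1b, and its log2 fold change of -0.81 ± 0.23 missed the threshold (adjusted p = 0.062). Gpx7 passed in 4 of 15 alternatives, among them with no filter on dim probe sets (0.040). These included leaving out IL-1b replicate 1 or 2, where the spread came from the vehicle pair. For Gpx8 the values were 6020 and 6064 with vehicle and 3888 and 4660 with IL-1b (log2 fold change -0.50, adjusted p = 0.10). In both of these the IL-1b arrays lay below the vehicle arrays.

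The glutathione transferases moved in both directions, with 3 of 10 higher, 2 lower and 5 not past the threshold. The shares higher and lower were 30% and 20%, beside 7.19% and 8.13% of all genes. Mgst1, a membrane-bound transferase and peroxidase, read 19.8 and 28.4 with vehicle and 282 and 378 with IL-1b. Here 1 of the 2 vehicle arrays was below background, both IL-1b arrays were well above it, and the log2 fold change was 3.50 ± 0.38 (limma adjusted p = 0.0014), or 3.29 to 3.71 when 1 array was left out. Gstp1, the pi class enzyme whose promoter stretch is given above, read 3397 and 3357 with vehicle and 9500.3 and 6832 with IL-1b. It rose by 1.25 ± 0.20 (adjusted p = 0.0078), from vehicle values that were close together, and missed the threshold without vehicle replicate 1 or 2 (0.064 and 0.075) or without the intensity trend (0.071). The mu class enzymes Gstm1 and Gstm2 went opposite ways. Gstm1 read 306 and 331 with vehicle and 699.8 and 647 with IL-1b, a rise of 1.07 ± 0.16 (adjusted p = 0.0061) that missed the threshold without the intensity trend (0.060) and after median centring (0.22). In neither mu class gene did the groups overlap. Gstm2 read 2405 and 2197 with vehicle and 1151 and 1311 with IL-1b, a fall with a log2 fold change of -0.90 ± 0.15 (adjusted p = 0.0084). Gstm2 missed the threshold without vehicle replicate 1 or 2 (0.12 and 0.059), without the intensity trend (0.087) and after median centring (0.055). The mu class genes are close relatives, and how far these probe sets take up RNA of other class members was not tested.

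Gsta4, an alpha class enzyme that conjugates the lipid peroxidation product 4-hydroxynonenal, read 246 and 227 with vehicle and 60.3 and 63.1 with IL-1b. Both IL-1b arrays were far below the vehicle arrays, 1 of them below that array's background, and it fell 3.60-fold (log2 fold change -1.85 ± 0.29, adjusted p = 0.0070). Without vehicle replicate 1 or 2 it missed the threshold (0.097 and 0.072). Of the transferases that did not pass, Mgst2 was nearest to the threshold, at 624 and 653 with vehicle and 882 and 1114 with IL-1b (log2 fold change 0.63 ± 0.17, adjusted p = 0.052). It passed in 8 of 15 alternatives. Mgst3 read 180.1 and 204 with vehicle and 118 and 73.0 with IL-1b, lower on both arrays but not past the threshold (0.097). Gstt1 read 35.1 and 85.2 with vehicle and 132 and 113 with IL-1b, without overlap but with vehicle arrays far apart. Its log2 fold change of 1.07 did not pass (adjusted p = 0.21), ranged from 0.49 to 1.65 when 1 array was left out, and passed without IL-1b replicate 2 (0.041). Gsto1 and Gstk1 had log2 fold changes of 0.53 and -0.48 (adjusted p = 0.15 and 0.70), and the IL-1b values of Gstk1 were 20.2 and 62.0, against vehicle values of 41.0 and 66.8.

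In the thioredoxin arm the reductase and the inhibitor changed in opposite directions, while neither thioredoxin passed. Txnrd1, the cytosolic selenoprotein that reduces thioredoxin, read 911 and 719 with vehicle and 3294 and 3157 with IL-1b at its brighter probe set. The groups were far apart, and it rose 3.96-fold (log2 fold change 1.99 ± 0.16, adjusted p = 4.2e-04), or by 1.82 to 2.16 when 1 array was left out. Its other probe set went from 393 and 478 to 2767 and 2900.0, a rise of 2.69 on the log2 scale (1.3e-04). Txnip read 3136 and 2950.4 with vehicle and 918 and 749 with IL-1b. Both IL-1b arrays were far below both vehicle arrays, and it fell 3.65-fold (log2 fold change -1.87 ± 0.16, adjusted p = 4.6e-04), or -2.01 to -1.72 when 1 array was left out.

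Txn1, the cytosolic thioredoxin, read 10100.4 and 9535 with vehicle and 19622 and 11454 with IL-1b. Both IL-1b arrays were higher but differed between themselves by more than 1 of them did from vehicle, and the log2 fold change of 0.61 ± 0.28 did not pass (adjusted p = 0.22). The mitochondrial genes Txn2, Txnrd2 and Prdx3 did not pass either, with log2 fold changes of 0.13, 0.35 and 0.33 (adjusted p = 0.66, 0.60 and 0.23). Txnrd2 read 64.5 and 93.8 with vehicle and 104 and 96.7 with IL-1b, so its groups nearly met. Whether the mitochondrial and cytosolic reductases differed in their response was not tested.

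**Figure D3:**
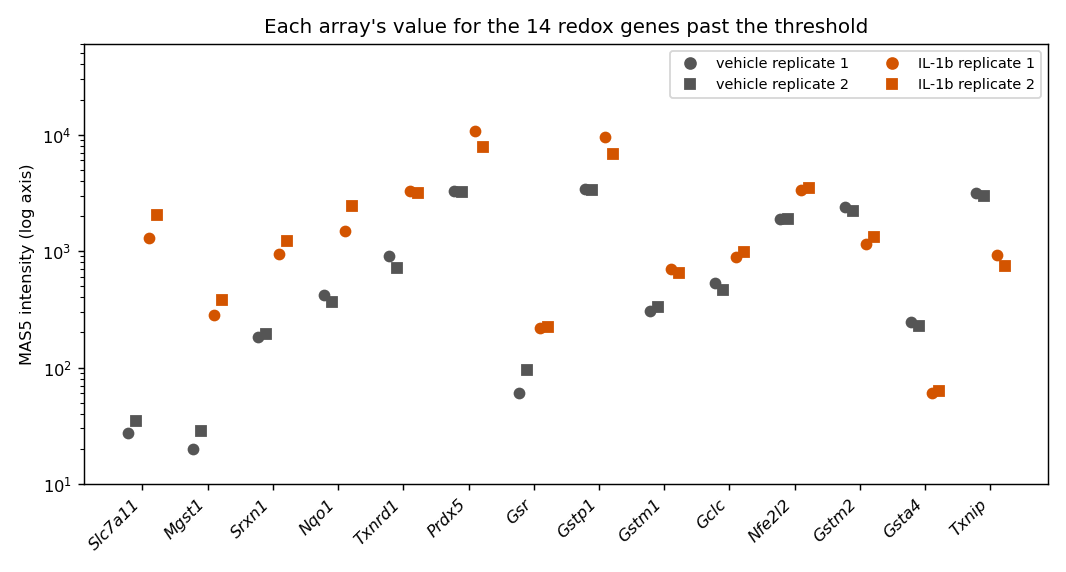
MAS5 intensity (vertical log axis) of each of the 4 arrays for the 14 redox genes past an adjusted p of 0.05, ordered by fold change from Slc7a11 to Txnip; grey is vehicle, orange is IL-1b, circles are replicate 1 and squares replicate 2. In each gene both IL-1b arrays lie on one side of both vehicle arrays, and the gap is widest for Slc7a11, from 34.6 to 1285.

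Among peroxiredoxins and sulfiredoxin, 2 of 6 rose, or 33.3% beside 7.19% of all genes, and 4 did not pass. Srxn1, sulfiredoxin, repairs peroxiredoxins whose catalytic cysteine has been overoxidised. It read 184 and 195 with vehicle and 937 and 1226 with IL-1b, and all IL-1b values were several times the vehicle values. It rose 5.52-fold (log2 fold change 2.47 ± 0.19, adjusted p = 3.3e-04), and a dimmer probe set gave 3.24 (0.0013), while the remaining one was too dim to be tested. Prdx5, a peroxiredoxin found in mitochondria, peroxisomes and cytosol, read 3262 and 3208 with vehicle and 10786 and 7811 with IL-1b. The vehicle arrays were close together and the IL-1b arrays were well above them, a 2.83-fold rise (SE 0.20 on the log2 scale, adjusted p = 0.0036). Without the intensity trend Prdx5 was just over the threshold (0.052). Prdx2, Prdx6 and the endoplasmic reticulum enzyme Prdx4 had log2 fold changes of 0.31, 0.32 and -0.37 (adjusted p = 0.33, 0.20 and 0.14). For Prdx6 the vehicle arrays read 1702 and 1701 and the IL-1b arrays 2016 and 2253, a small difference without overlap that did not pass.

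Around NRF2, 2 of 4 genes rose, or 50% beside 7.19% of all genes, and 2 did not pass. Nfe2l2 read 1898 and 1872 with vehicle and 3319 and 3490.2 with IL-1b. Replicates agreed closely in both groups, and it rose 1.80-fold (log2 fold change 0.85 ± 0.14, adjusted p = 0.0085), but it missed the threshold without vehicle replicate 1 or 2 (0.16 and 0.19), without the intensity trend (0.083) and after median centring (0.25). Keap1, the inhibitor, read 343 and 376 with vehicle and 298 and 339 with IL-1b at its brighter probe set (log2 fold change -0.17, adjusted p = 0.58), and its other probe set gave 0.40 (0.33). The 2 probe sets of Keap1 thus disagreed in sign and neither passed. Nqo1, a quinone reductase and a classic NRF2 target, read 417 and 364 with vehicle and 1492 and 2430.2 with IL-1b. Both IL-1b arrays lay above both vehicle arrays, though apart from each other, and the rise was 2.27 ± 0.24 (adjusted p = 0.0013), or 1.92 to 2.62 when 1 array was left out. Nfe2l1, a related factor held in the endoplasmic reticulum membrane, had 3 probe sets with log2 fold changes of 1.14, 0.91 and 0.81, none past the threshold (adjusted p = 0.067, 0.067 and 0.23). At the first of these, IL-1b replicate 1 read 796 and IL-1b replicate 2 read 414, against 306 and 216 with vehicle. Nfe2l1 passed in 6 of 15 alternatives, among them without vehicle replicate 1 and without IL-1b replicate 1 or 2. Its log2 fold change ranged from 0.67 to 1.61 when 1 array was left out.

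The glutathione and thioredoxin arms had similar counts and medians. In the glutathione arm 6 of 19 tested genes rose and 2 fell, with a median log2 fold change of 0.41, and in the thioredoxin arm 3 of 11 rose and 1 fell, with a median of 0.33. As shares, 31.6% and 27.3% rose, beside 7.19% of all genes, and 10.5% and 9.09% fell, close to the 8.13% of all genes. The difference of the medians, glutathione minus thioredoxin, was 0.08, and it was -0.16 for IL-1b replicate 1 and 0.09 for the other, each set against the vehicle mean. It was therefore smaller than the spread between the 2 arrays (SD 0.18), and its sign was negative after quantile normalization and with no filter or a stricter filter on dim probe sets (-0.036, -0.040 and -0.038). The spread of genes within each arm was much wider, from -1.85 to 5.49 in the glutathione arm and from -1.87 to 2.47 in the thioredoxin arm.

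**Figure D4:**
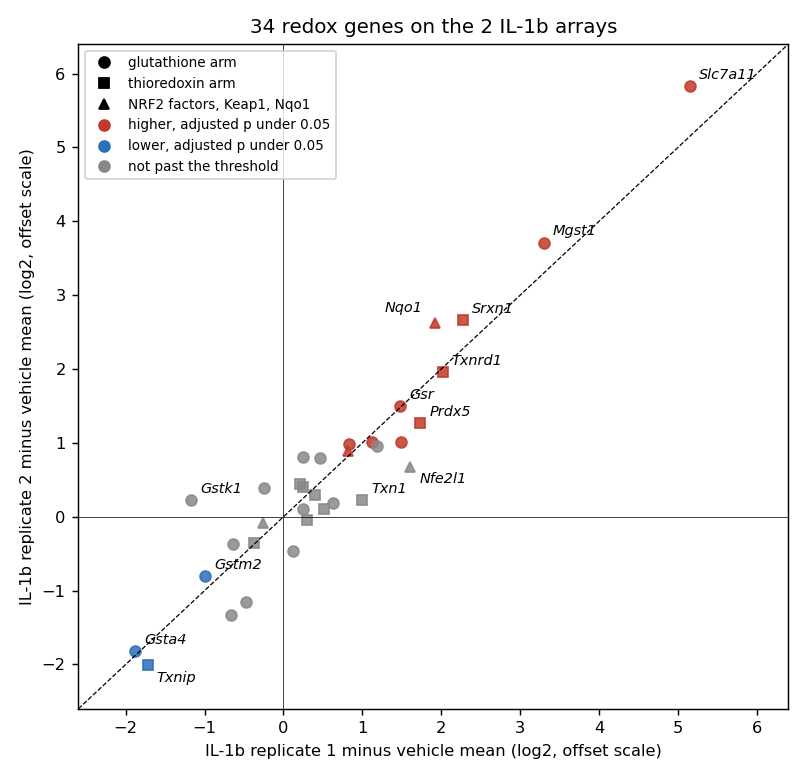
Log2 difference from the vehicle mean for the 34 redox genes on IL-1b replicate 1 (horizontal axis) and IL-1b replicate 2 (vertical axis), with the arms shown by symbol, the calls by colour and equality as a dashed line. The 14 called genes lie near the line, from Txnip and Gsta4 to Slc7a11, while Gstk1 lies to the left of zero on replicate 1 and just above it on replicate 2.

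Genes of the same pathways outside the list were counted from further lists. Over all of these, 17 of 114 rose and 12 fell, or 14.9% and 10.5%, beside 7.19% and 8.13% of all genes, and the lists are small enough for 1 gene to move a share by several percentage points. Of genes of glutathione transport and turnover, 3 of 26 rose and 1 fell (11.5% and 3.85%, beside 7.19% and 8.13% of all genes). Their median log2 fold change was 0.01. Slc3a2, the heavy chain that carries Slc7a11 to the membrane, read 1256 and 1158 with vehicle and 2267 and 1844 with IL-1b (log2 fold change 0.76, adjusted p = 0.023), a far smaller rise than that of its partner, though the difference was not tested. The export pump Abcc1 and the glutamine carrier Slc1a5 rose by 1.13 and 1.22, and glutaredoxin, Glrx, which uses glutathione to reduce mixed disulfides, fell with a log2 fold change of -1.30 (adjusted p = 0.0051). Among further transferases and peroxidases 2 of 9 rose, or 22.2% beside 7.19% of all genes, and 7 did not pass. The 2 that rose were Ptges, the prostaglandin E synthase of the same membrane family as Mgst1, at 4.38 ± 0.33, and Gsta1, at 0.66 ± 0.15 (adjusted p = 3.0e-04 and 0.028). Ptges read 53.9 and 27.4 with vehicle at this probe set. Its dimmer probe set, below background on both vehicle arrays, gave 5.91 (6.5e-05). Slc3a2 and Gsta1 missed the threshold without vehicle replicate 1 (0.15 and 0.48) and without vehicle replicate 2 (0.27 and 0.30). Without the intensity trend Slc3a2, Slc1a5, Abcc1, Glrx and Gsta1 all missed it (0.13, 0.060, 0.058, 0.052 and 0.14), and after median centring so did Slc3a2, Slc1a5, Abcc1 and Gsta1 (0.39, 0.13, 0.20 and 0.45).

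Of the further thioredoxin-fold, sestrin and methionine sulfoxide reductase genes, 1 of 25 rose and 5 fell (4% and 20%, beside 7.19% and 8.13% of all genes). The reductases Msrb3 and Msrb1, which repair oxidised methionine, fell with log2 fold changes of -1.31 and -0.80, and nucleoredoxin, Nxn, with -0.98 (adjusted p = 0.0026, 0.011 and 0.014). Txndc5, a protein disulfide isomerase, rose by 0.63 (0.029). Without vehicle replicate 2 Msrb1, Nxn and Txndc5 missed the threshold (0.12, 0.12 and 0.36), and so did Msrb1 and Txndc5 without vehicle replicate 1 (0.19 and 0.39). Without the intensity trend Msrb3, Msrb1, Nxn and Txndc5 all missed it (0.053, 0.098, 0.11 and 0.15), and after median centring so did Msrb1, Nxn and Txndc5 (0.081, 0.053 and 0.50). Both systems draw on NADPH. Among 16 genes of its supply 2 rose and 3 fell (12.5% and 18.8%, beside 7.19% and 8.13% of all genes). Taldo1 and Pgd, of the pentose phosphate pathway, rose by 1.29 and 0.99 (adjusted p = 0.0017 and 0.0041), and Pgd missed the threshold without vehicle replicate 1 or 2 (0.080 and 0.064). The isocitrate dehydrogenases Idh1 (cytosolic) and Idh2 (mitochondrial) fell, with log2 fold changes of -1.23 and -1.42 (0.0034 and 0.0015). Idh2 read 1806 and 1863 with vehicle and 751 and 618 with IL-1b, and Taldo1 1067 and 1050.3 with vehicle and 2766 and 2421 with IL-1b, each without overlap. Idh2 passed in every alternative run, while Idh1 and Pgd missed the threshold without the intensity trend (0.058 and 0.063) and Taldo1 and Pgd after median centring (0.051 and 0.16).

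Among 15 partners and regulators of NRF2, 3 rose, or 20% beside 7.19% of all genes, and 12 did not pass. The small Maf genes Maff and Mafg rose by 3.91 ± 0.45 and 1.31 ± 0.17 (log2, SE, adjusted p = 0.0018 and 0.0032). Maff read 20.4 and 61.8 with vehicle, with 1 of these below background, and 603 and 639 with IL-1b. Mafg missed the threshold after median centring (0.11), while Maff passed in every alternative run. The log2 fold change of Maff was 3.22 and 4.59 at the lowest and highest when 1 array was left out. Sqstm1, an autophagy receptor that binds Keap1, rose by 0.70 (0.030), and missed the threshold without vehicle replicate 1 or 2 (0.38 and 0.49), without the intensity trend (0.13), after median centring (0.28), at its probe set of largest variance (0.59) and by the mean of its probe sets (0.14).

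Of 14 further NRF2 targets 5 rose, 2 fell and 7 did not pass. The shares that rose and fell were 35.7% and 14.3%, beside 7.19% and 8.13% of all genes. Akr1b8, an aldo-keto reductase, read 328 and 359 with vehicle and 6867 and 5629 with IL-1b, a 17.8-fold rise (log2 fold change 4.16 ± 0.16, adjusted p = 3.2e-05). Aldh3a1, an aldehyde dehydrogenase, was below background on both vehicle arrays (18.0 and 17.7), read 356 and 193 with IL-1b and rose at least 9.32-fold (adjusted p = 0.0034). It too was bright enough for testing only through its IL-1b arrays. Hmox1, heme oxygenase 1, read 239 and 158 with vehicle and 1200.03 and 1292 with IL-1b (2.64 ± 0.22, adjusted p = 4.4e-04). In these 3 genes the IL-1b arrays were all above the vehicle arrays. Aldehyde oxidase, Aox1, went the other way, from 377 and 422 to 74.2 and 99.9 (log2 fold change -2.14 ± 0.25, adjusted p = 0.0021), where the lower IL-1b value was below that array's background. Targets of NRF2 on this list therefore stood on both sides.

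Of 9 genes for the making of selenoproteins, the class that holds Gpx1, Gpx4 and Txnrd1, 1 rose and 1 fell, each 11.1%. These shares were close to those of all genes, of which 7.19% rose and 8.13% fell. Selenop, the secreted protein that carries selenium, read 3142 and 2886 with vehicle and 254 and 423 with IL-1b. It fell 9.05-fold (log2 fold change -3.18 ± 0.24, adjusted p = 3.1e-04), with IL-1b values far below those of vehicle. Secisbp2l, related to the factor that reads the selenocysteine signal in RNA, rose by 0.77 (0.029) and missed the threshold without vehicle replicate 1 or 2 (0.29 and 0.0996), without the intensity trend (0.14) and after median centring (0.49).

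**Figure D5:**
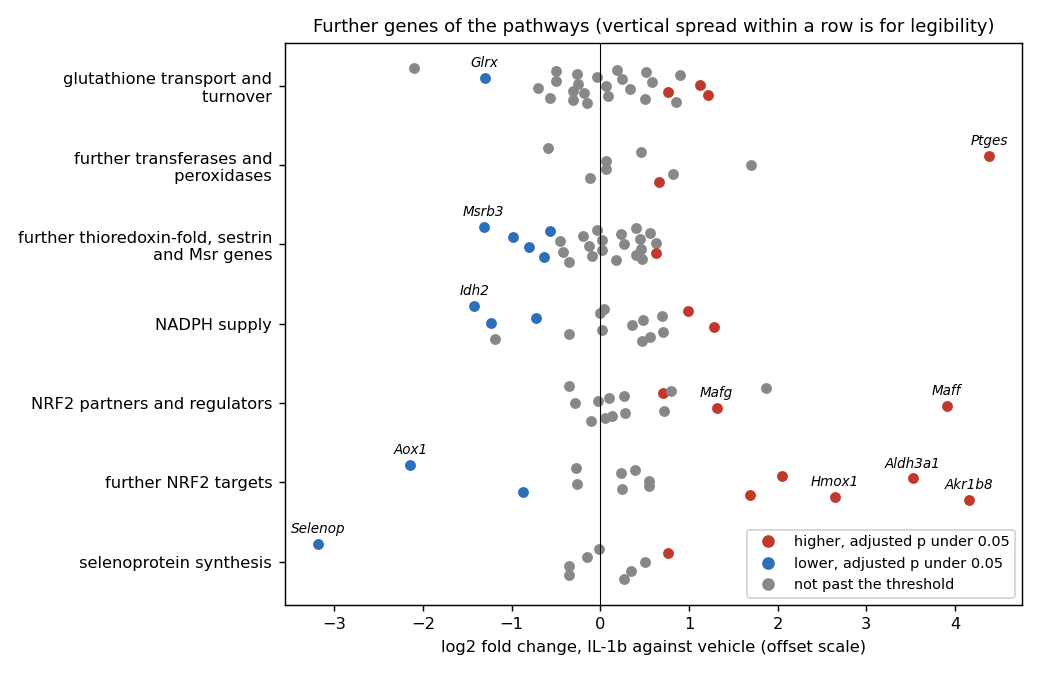
Log2 fold change of IL-1b against vehicle (horizontal axis, offset scale) for the 114 further pathway genes tested, in 7 lists; red and blue mark genes higher and lower at an adjusted p under 0.05, and names are given for those beyond 1.3 in size that the text takes from each list. Akr1b8 and Ptges lie farthest right at 4.16 and 4.38 and Selenop farthest left at -3.18.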

How the data were processed

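The deposited values are linear probe set intensities from MAS5, per the submitters' processing notes, which name no version or settings in the text used here. The software corrects for background, combines the probes of each set and scales whole arrays. Trimmed by 2% at either end, every array averaged 250.1, so the values were not rescaled. On an array of weak signal such scaling also lifts the background.

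An offset of 5.49 (the 10th percentile) was added before log2. After removal of 57 controls, probe sets with a mean log2 of at least 5.37 (the 40th percentile) were tested, 18625 in all, using limma 3.58.1 under R 4.3.3 (lmFit by group, eBayes with an intensity trend, Benjamini-Hochberg adjustment), and 2503 passed an adjusted p of 0.05. Symbols came from the platform annotation, and each gene's value is that of its brightest probe set with 1 symbol. Background was the 95th percentile of 27 dim bacterial controls, and the bound it gives for folds ("at least") was added after seeing the data. The fit was tested on simulated data.

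The members of the gene list, the further lists and the rule for naming genes were chosen with earlier results of these data known. By that rule all 36 genes are accounted for, with array values for those past the threshold, the supply genes, Nfe2l2, Keap1 and Txnip, and each further list gives up to 4 genes past the threshold with the largest change. Alternatives were other offsets, normalizations, filters, variance models, thresholds and probe set choices, the replicate number as a block, and leaving out each array. Motifs were found by exact search.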

Additional observations from a re-analysis of the deposited data

How the results depend on the processing

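All 14 called redox genes kept their direction in the alternatives run. The 2503 probe sets past the threshold became 1634 after median centring, 963 without the intensity trend and 1222 at an adjusted p of 0.01, and 1426 to 8794 when 1 array was left out. Of the redox genes, 11 were higher, and 7 after median centring, 5 without the intensity trend and 8 to 19 when 1 array was left out. Between 1 and 8 were lower when 1 array was left out, against 3, and the 1 was reached without either vehicle array. Leaving out an IL-1b array makes the p-values rest on the spread of the vehicle pair. Median centring moved the median log2 fold change of all genes to -0.21 and the share of calls that were higher from 47.1% to 34.4%. After median centring 3.37% of all genes were higher and 6.16% lower, against 7.19% and 8.13% before it. Without the intensity trend these shares were 2.97% and 2.79%. The smaller counts of higher redox genes under these settings thus went with smaller shares of all genes. The difference of arm medians was -0.036 after quantile normalization, -0.040 with no filter, -0.038 with a filter at the 60th percentile and -0.16 to 0.17 when 1 array was left out.

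Among genes that did not pass, Gclm was at -0.14, Gss at -0.035 and Txn2 at -0.075 after median centring, and Keap1 at 0.40 by its probe set of largest variance and 0.11 by the mean of its probe sets. Leaving out 1 array gave -0.25 to 0.38 for Gclm, -0.46 to 0.11 for Gpx1, -1.17 to 0.22 for Gstk1 and -0.040 to 0.30 for Txn2. The cause was not tested. With the replicate number as a block 3276 probe sets passed, and 13 redox genes were higher and 4 lower, when 19.3% of all genes passed (8.73% higher, 10.5% lower) against 15.3% without the block. The deviations of same-numbered arrays correlated at 0.091, and nothing else pairs them. Dim genes near background, such as Gstk1 and Gpx3, are limited by signal.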
